A study of Mus musculus with 4 samples.

Results

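The chemokine receptors Ccr1, Ccr2, Ccr6, Ccr7, Cxcr2, Cxcr3, Cxcr4, Cx3cr1 and Ackr3 were examined in mouse LLC tumors whose cells did (LLC-Chem) or did not (LLC) carry a chemerin plasmid. The 9 genes were taken by their symbols from the 47729 genes with a deposited value. LLC cells are a mouse Lewis lung carcinoma line of the C57BL/6 strain. They were grafted under the skin of the back of syngeneic C57BL/6 mice, and tumors were collected after 5 days and analyzed in pools of 3, with 2 pools per group. The cells of the LLC-Chem pools carried, by their label, pEFIN plasmids for murine chemerin, a ligand of the receptor CMKLR1, and were grown from clones picked after selection. The LLC cells are labelled wild type, although the study also describes cells given the empty vector. A difference between clones and an effect of chemerin cannot be told apart with these pools. The 9 receptors were chosen by name, and with RPM differences between these same pools already known, so their changes and counts are a description and not evidence about the family. The choice set no threshold on a value.

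Chemokines are small secreted proteins that guide cell migration through receptors with 7 transmembrane segments, most of which couple to inhibitory G proteins. Receptors of the inflammatory group, such as CCR1, CCR2 and CXCR2, bring monocytes and neutrophils into inflamed tissue and tumors, while homeostatic ones, such as CCR7 and CXCR4, direct leukocytes to lymphoid organs and niches. Atypical receptors such as ACKR3 bind chemokines without activating G proteins and remove them from the tissue. Several receptors are not confined to leukocytes, since CXCR4 and ACKR3, which share the ligand CXCL12, are also found on endothelial, stromal and tumor cells.

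Expression was measured by RNA sequencing of whole tumor tissue and is given in RPM, that is, reads per 1000000 reads counted on genes. The fitted library totals ranged from 28470000 to 30834000 reads in LLC and from 33518000 to 33990000 in LLC-Chem. A floor of 3 reads corresponds at this depth to between 0.0883 and 0.105 RPM, a limit that covers counting error only. Rarres2, the gene for chemerin, measured between 98.2 and 105.9 RPM in the 4 pools and did not separate the groups past the threshold (log2 change 0.08, limma adjusted p = 0.541). A raised level in the libraries labelled LLC-Chem, which a murine insert could give, was thus not detected, and each direction below rests on the labels. The paper reports a smaller CD31-stained area in LLC tumors that expressed chemerin. Pecam1, the gene of CD31, measured 71.2 and 46.2 RPM in LLC and 18.5 and 9.345 RPM in LLC-Chem. Whether the labels match the cells was not tested. Differences between groups were tested two-sided by limma, on log2(RPM + 0.5), over the 13694 genes whose mean reached 1 RPM, and called at an adjusted p under 0.05. This scale understates the change of genes near the limit. The median log2 fold change of all genes tested was -0.04. The labels do not say that the pools come from separate experiments, so the p-values measure the spread between these pools.

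The 9 receptor genes lie at several places of the genome (GRCm38, GENCODE M21), and all are protein coding. Ccr1 (chromosome 9, 123962124 to 123968692) and Ccr2 (chromosome 9, 124101950 to 124113557) stand in a cluster with Ccr3 (124021972 to 124031689). Cx3cr1 (119901616 to 120069879) lies further off on the same chromosome. Cxcr2 (74153989 to 74161246), Ackr3 (90203980 to 90216751) and Cxcr4 (128588199 to 128592293) are on chromosome 1. Ccr6 is on chromosome 17 (8236043 to 8257141), Ccr7 on chromosome 11 (99144196 to 99155077) and Cxcr3 on the X chromosome (101731535 to 101734269). No exon of the 9 genes lies under an exon of another annotated gene. Of the 50-base words in their transcripts, between 0% and 6.68% also occur in transcripts of another gene, with the highest share in Cxcr2, so that few reads could be lost to similar genes.

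The promoters of the 9 genes differ in their content of CG dinucleotides, which mark the start sites of widely expressed genes more often than those of cell type-specific ones. They were read from RefSeq (GRCm38.p6) as the 250 bases before each start, and 8 of the 9 genes matched. RefSeq starts can differ from the GENCODE bounds given above. Windows of Ccr2, Cx3cr1, Cxcr2, Cxcr3 and the second start of Ccr6 lie wholly or partly inside those bounds. The sequences of Cxcr4 and Ackr3, and those of Ccr2 and of both starts of Ccr6, are shown 5′ to 3′ on the strand of the gene to set the ends of this range side by side, with each CG in capitals.
Cxcr4, chr1:128592300-128592549, minus strand: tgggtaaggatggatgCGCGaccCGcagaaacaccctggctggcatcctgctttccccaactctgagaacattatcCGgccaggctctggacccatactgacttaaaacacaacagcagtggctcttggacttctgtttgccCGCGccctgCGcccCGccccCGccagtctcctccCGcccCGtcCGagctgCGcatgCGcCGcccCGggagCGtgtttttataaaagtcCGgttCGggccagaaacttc
Ackr3, chr1:90203730-90203979, plus strand: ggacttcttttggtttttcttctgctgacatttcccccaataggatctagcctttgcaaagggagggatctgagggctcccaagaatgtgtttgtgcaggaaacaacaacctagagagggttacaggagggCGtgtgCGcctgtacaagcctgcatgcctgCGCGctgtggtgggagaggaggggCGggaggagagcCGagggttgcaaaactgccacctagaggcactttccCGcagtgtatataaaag
Ccr2, chr9:124101933-124102182, plus strand: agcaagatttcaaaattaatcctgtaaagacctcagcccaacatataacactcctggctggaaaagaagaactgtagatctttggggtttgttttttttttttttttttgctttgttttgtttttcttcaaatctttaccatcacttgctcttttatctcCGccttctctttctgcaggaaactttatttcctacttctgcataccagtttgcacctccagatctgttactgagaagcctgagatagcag
Ccr6, first start, chr17:8235793-8236042, plus strand: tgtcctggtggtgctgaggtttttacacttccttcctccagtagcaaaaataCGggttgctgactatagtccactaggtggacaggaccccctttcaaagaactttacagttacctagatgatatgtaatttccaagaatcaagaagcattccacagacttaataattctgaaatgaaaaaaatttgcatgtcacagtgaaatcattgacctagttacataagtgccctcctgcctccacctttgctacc
Ccr6, second start, chr17:8242276-8242525, plus strand: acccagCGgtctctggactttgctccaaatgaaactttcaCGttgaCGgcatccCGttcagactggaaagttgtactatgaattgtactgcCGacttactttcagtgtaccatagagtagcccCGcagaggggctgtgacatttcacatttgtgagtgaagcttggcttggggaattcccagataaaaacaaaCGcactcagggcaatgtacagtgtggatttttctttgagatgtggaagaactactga
Cxcr4 has 19 CG and Ackr3 has 7, against a median of 6 over the 32851 promoter windows of the table. The windows of Ccr1, Ccr2, Cxcr2 and the first start of Ccr6 have 1 CG each, and 7.9% of all windows have fewer. The second start of Ccr6 has 7, Cx3cr1 has 4 and Cxcr3 has 3. The letters GGGCGG, searched on both strands and overlapping 1 of the CG, were found 3 times before Cxcr4 and 1 time before Ackr3 and in none of the other member windows, and 32.7% of all windows hold them. The letters GAGGAA, the core bound by the myeloid factor PU.1, occur 1 time before each of Ccr1, Cxcr2, Cxcr3 and the first start of Ccr6 on either strand, and 23.3% of all windows hold them. These matches describe the letters of the windows only, and no binding was measured.

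For all 9 receptors the groups did not overlap, with both LLC-Chem pools lower. This order was found for 39.3% of all genes tested and the reverse order for 33.1%. By limma 6 of the 9 fell at an adjusted p under 0.05, namely Ccr6, Ccr2, Cxcr4, Cxcr3, Cx3cr1 and Ccr1, and none rose, while 13.5% of all genes tested were called lower. Without the limit of 1 RPM limma called 0 of the 9 (adjusted p of the 6 between 0.105 and 0.137). At an unadjusted p under 0.05, 7 were lower there, against 4003 of all 26260 genes lower and 3394 higher. Cxcr2, Ccr7 and Ackr3 did not pass in the filtered table (limma adjusted p = 0.0508, 0.105 and 0.107). With DESeq2 on reads recovered from the RPM steps 8 fell, against 16.6% of all genes called lower. With the replicate number as a block in limma 5 fell, against 7.77% of all genes called lower and 4.01% called higher. The log2 fold changes of the 9 ran from -4.95 to -0.89 with a median of -1.51. In bulk tissue, fewer cells of a type and less RNA per cell cannot be told apart. Every call needed all 4 pools. When any single pool was left out, whether of LLC or of LLC-Chem, the log2 fold changes of all 9 receptors stayed below 0. In those fits the lone pool of a group is assumed to vary like the other group.

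**Figure D1:**
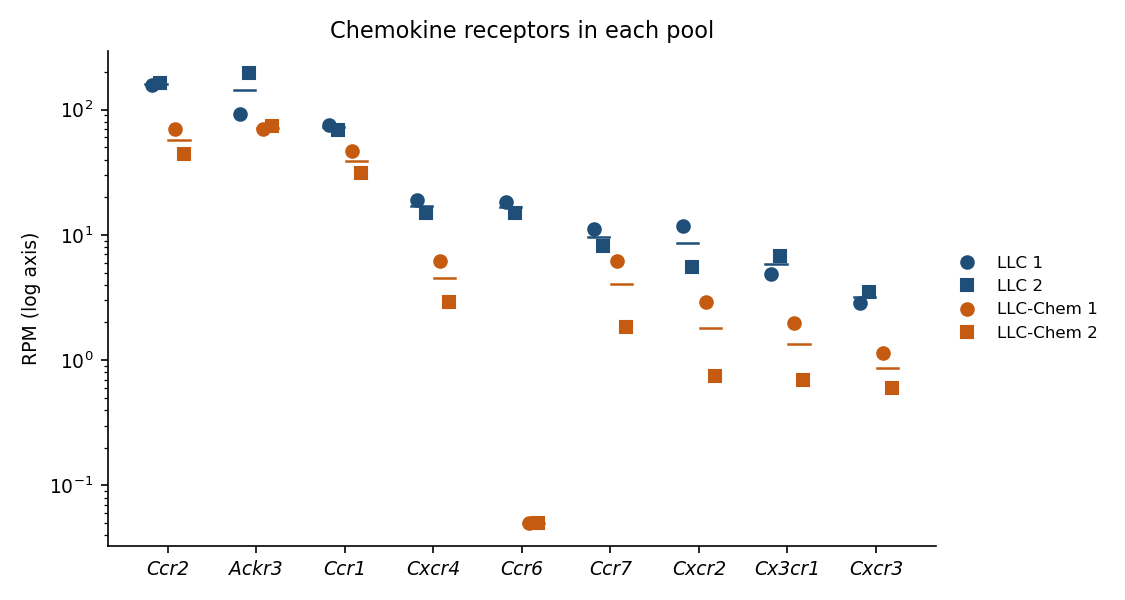
Deposited RPM (log axis) of the 9 chemokine receptors in each of the 4 pools, with LLC pools in blue, LLC-Chem pools in orange, and a short line at the mean of each group. For every receptor both orange points lie below both blue points, and Ccr6 drops to 0.05 RPM in both LLC-Chem pools.

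Ccr6 had the lowest log2 fold change of the 13694 genes tested. CCR6 is the receptor of CCL20 and is known from B cells, immature dendritic cells and IL-17-producing T cells. Ccr6 (ENSMUSG00000040899) measured 18.2 and 15.0 RPM in LLC and 0.05 RPM in each LLC-Chem pool. These values stand for 560 and 426 reads in the LLC libraries and for 1 read in each LLC-Chem library. The gene was thus well covered in 1 group and at the edge of detection in the other. Scaled to depth, the reads were 561-fold more in LLC, with a 95% interval (exact Clopper-Pearson on the reads) from 155 to 4640 that covers counting error only. The deposited RPM give a smaller ratio of means, 332-fold, because each read in LLC-Chem is listed as 1 whole step of RPM. The fitted log2 change was -4.95 ± 0.22 (SE, limma adjusted p = 0.00233, both LLC-Chem pools lower), and its size depends on the pseudocount because the LLC-Chem pools are near 0. No other receptor listed here came close to a change of this size.

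The ligand gene Ccl20 was listed at 0 RPM in all 4 pools. Markers of the lymphoid cells in which CCR6 is known were scarce in both groups. Neither of the 2 B cell markers (Ms4a1 and Cd79a) reached a mean of 1 RPM, and their summed level was 1.499 and 0.40 RPM in LLC and 0.45 and 0.25 RPM in LLC-Chem. Among the 6 T cell markers only Cd4 did, with a summed level over the list of 6.75 and 5.15 RPM in LLC and 2.65 and 0.55 RPM in LLC-Chem. Among the 5 dendritic cell markers Flt3 fell, though not with the block in limma (adjusted p = 0.0578), and Zbtb46, Itgax, Clec9a and Cd209a were not called, and the list summed to between 42.7 and 46.6 RPM in LLC and between 36.1 and 40.7 RPM in LLC-Chem. None of the 3 lists summed to 0 in a LLC-Chem pool, but the B cell sum of the second LLC-Chem pool rests on 7 reads of Cd79a. These lists do not single out the cells that carry CCR6. The part of these cells in the Ccr6 result was not tested.

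The tested genes with the most similar course over the 4 pools were Crabp1, Tnn and Cxcl3. They were found by the Euclidean distance between log2(RPM + 0.5) profiles centred on their own mean, which was 0.668, 0.98 and 1.16. Crabp1, which encodes a retinoic acid-binding protein, measured 69.8 and 35.6 RPM in LLC and 1.80 and 1.65 RPM in LLC-Chem. Tnn encodes the matrix protein tenascin-N, and Cxcl3 a ligand of CXCR2. With 4 pools any gene that is high in both LLC pools and near 0 in both LLC-Chem pools is close by this measure.

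Ccr2 and Ccr1, receptors of monocytes and macrophages, fell less steeply than Ccr6. CCR2 binds CCL2 and draws inflammatory monocytes from the blood. Ccr2 (ENSMUSG00000049103) measured 158.5 and 163.3 RPM in LLC and 70.8 and 44.3 RPM in LLC-Chem. The LLC pools were nearly equal, and both LLC-Chem pools lay well under them at 35.8% of the LLC mean. The log2 change was -1.51 ± 0.22 (SE, limma adjusted p = 0.0152). CCR1 binds CCL3, CCL5 and related chemokines on monocytes, macrophages and neutrophils. Ccr1 (ENSMUSG00000025804) measured 75.7 and 69.0 RPM in LLC and 46.5 and 31.2 RPM in LLC-Chem. The group means were 72.3 ± 4.74 RPM and 38.9 ± 10.8 RPM (SD, n = 2 pools each), without overlap. The log2 change of -0.91 ± 0.20 (SE, limma adjusted p = 0.0322) is the smallest of the 6 receptors called, and without limma's trend the call was lost at the same log2 change (limma adjusted p = 0.0568).

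Cx3cr1 is the receptor of fractalkine and marks patrolling monocytes, resident macrophages and part of the NK cells. Cx3cr1 (ENSMUSG00000052336) measured 4.90 and 6.75 RPM in LLC and 2.00 and 0.70 RPM in LLC-Chem, where the second pool rests on 22 reads. The groups did not overlap, but the LLC-Chem pools stood well apart from each other. The log2 change was -1.85 ± 0.40 (SE, limma adjusted p = 0.0309). CXCR3 is found on activated T cells and NK cells and binds the interferon-induced chemokines CXCL9, CXCL10 and CXCL11. Cxcr3 (ENSMUSG00000050232) measured 2.85 and 3.50 RPM in LLC and 1.15 and 0.60 RPM in LLC-Chem. These values come from 87 and 99 reads in LLC and 38 and 19 reads in LLC-Chem. Its log2 change was -1.44 ± 0.29 (SE, limma adjusted p = 0.027). Neither Cx3cr1 nor Cxcr3 passed once the replicate number was a block (limma adjusted p = 0.0546 and 0.0533, edgeR adjusted p = 0.0843 and 0.072).

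Cxcr4 and Ackr3, which share the ligand CXCL12, did not pass the test alike. CXCR4 signals through G proteins and is widely found on leukocytes, progenitors, endothelial and tumor cells. Cxcr4 (ENSMUSG00000045382) measured 19.1 and 15.0 RPM in LLC and 6.15 and 2.90 RPM in LLC-Chem. Both LLC-Chem pools lay far below LLC, with a log2 change of -1.87 ± 0.34 (SE, limma adjusted p = 0.0235). Ackr3 (ENSMUSG00000044337), the gene of the atypical receptor that clears CXCL12, measured 91.8 and 195.4 RPM in LLC and 70.0 and 74.2 RPM in LLC-Chem. The LLC pools were far apart and the LLC-Chem pools close together. The log2 change was -0.89 ± 0.34 (SE, limma adjusted p = 0.107), and the difference between the 2 receptors was not tested. The second LLC pool decided its size, since the log2 fold change was -0.35 without it and -1.43 without the first LLC pool. DESeq2 called Ackr3 lower (adjusted p = 0.019).

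Cxcr2 and Ccr7 had wide spread between pools. CXCR2 draws neutrophils toward CXCL1, CXCL2 and related chemokines. Cxcr2 (ENSMUSG00000026180) measured 11.7 and 5.55 RPM in LLC and 2.90 and 0.75 RPM in LLC-Chem. Every pool differed from the next one down, and the second LLC-Chem pool rests on 24 reads. The log2 change was -2.06 ± 0.56 (SE, limma adjusted p = 0.0508). Leaving out 1 pool moved it between -1.34 (without the second LLC-Chem pool) and -2.78 (without the first LLC-Chem pool). Cxcr2 passed with the replicate number as a block (limma adjusted p = 0.0224, edgeR adjusted p = 0.0361), with a pseudocount of 1 (limma adjusted p = 0.0482) and with DESeq2 (adjusted p = 0.00453). CCR7 guides dendritic cells and naive T cells to lymph nodes. Ccr7 (ENSMUSG00000037944) measured 11.2 and 8.20 RPM in LLC and 6.25 and 1.85 RPM in LLC-Chem. Its LLC-Chem pools differed more from each other than the first LLC-Chem pool did from LLC, and the log2 change was -1.34 ± 0.50 (SE, limma adjusted p = 0.105). Without the second LLC-Chem pool the log2 fold change of Ccr7 was -0.58, and without the first LLC-Chem pool it was -2.10.

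Set per kilobase of exon, taken as the union of all annotated exons of a gene, the levels can be compared roughly between receptors. This union can be longer than the transcript present, and it was 6760 bases for Ccr2 against 2833 for Ccr1. In LLC, Ackr3 was highest at 42.9 RPM per kb, followed by Ccr1 at 25.5 and Ccr2 at 23.8 RPM per kb. Cxcr4 came next at 9.43 RPM per kb, Ccr6 at 7.15 and Ccr7 at 4.90. Cxcr2, Cxcr3 and Cx3cr1 were lowest, between 1.29 and 2.84 RPM per kb. Only the pools of Cxcr2 and Cxcr3 overlapped between neighbours of this order in LLC. In LLC-Chem the order Ackr3, Ccr1, Ccr2, Cxcr4 was found again, at 21.5, 13.7, 8.51 and 2.50 RPM per kb. Below them Cxcr4, Ccr7, Cxcr2, Cxcr3 and Cx3cr1 overlapped each with the next. Ccr6 was last at 0.0216 RPM per kb, after standing at position 6 of the 23 chemokine receptors listed in LLC and at position 22 of the 23 in LLC-Chem.

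A list of 14 further receptors was taken by family membership. Of these 5 reached a mean of 1 RPM, 3 fell and none rose, against 13.5% of all genes called lower, and the median log2 fold change of the 5 was -1.10. None of the 3 calls held with the replicate number as a block in limma (adjusted p = 0.0745 for Ccr3, 0.0519 for Ackr1 and 0.0662 for Ccrl2). Ccr3, a receptor of eosinophils in the cluster on chromosome 9, measured 1.95 and 2.15 RPM in LLC and 0.90 and 0.45 RPM in LLC-Chem (log2 change -1.14, limma adjusted p = 0.0424). Ackr1, an atypical receptor of venous endothelium and red cells, fell (log2 change -0.88, limma adjusted p = 0.0219), with 13.3 and 14.2 RPM in LLC and 7.496 and 6.996 RPM in LLC-Chem. For Ackr1, 25.7% of the exon bases lie under exons of Cadm3, where counting can drop reads. Ccrl2, a binding site for chemerin, also fell (log2 change -1.13, limma adjusted p = 0.0472), a call that was lost too without limma's trend (adjusted p = 0.0595) and at a filter of 0.5 RPM (adjusted p = 0.0506). Ackr2 (log2 fold change -1.10) and Cxcr5 (0.29) did not pass (limma adjusted p = 0.193 and 0.368). The other 9 receptors of the list were under the limit, and none of their pools exceeded 1.499 RPM. Among them Ccr10 measured 0.45 and 0.60 RPM in LLC and 1.25 and 1.499 RPM in LLC-Chem. When genes with a mean of 0.5 RPM or more were tested, 1 receptor of the list was called higher.

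**Figure D2:**
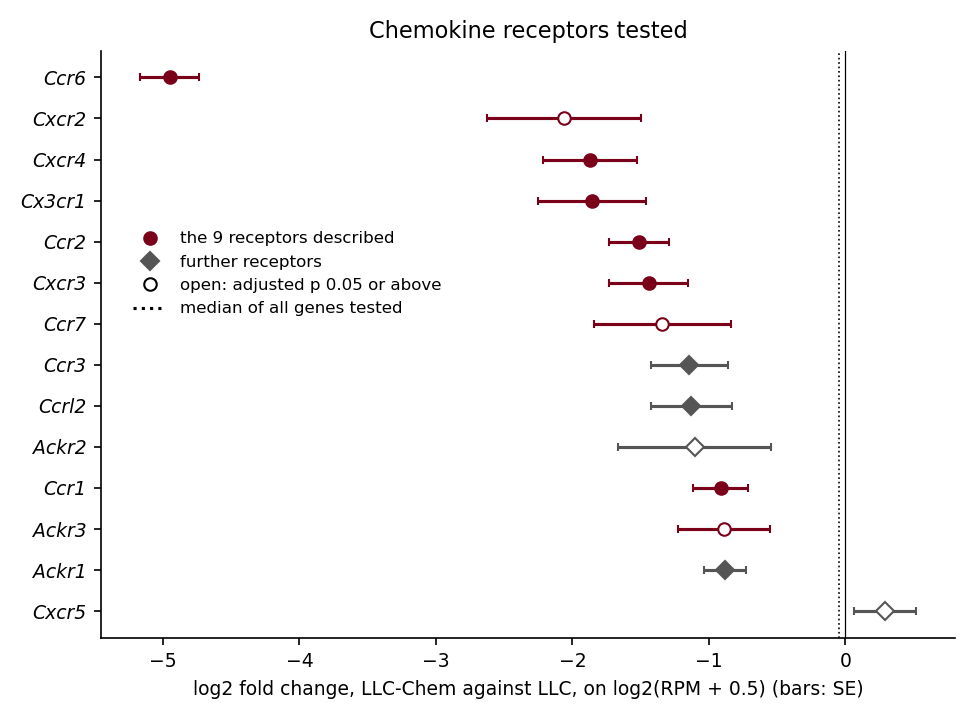
Log2 fold change of LLC-Chem against LLC on log2(RPM + 0.5), with standard errors as bars, for 14 chemokine receptors tested, and a dotted line at the median of all genes. Circles are the 9 receptors described, diamonds further receptors of the family, and open symbols did not pass an adjusted p of 0.05. Ccr6 stands apart at -4.95, and Cxcr5 alone lies above 0.

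The receptors were next set against Ptprc, the gene of the pan-leukocyte antigen CD45, in the same pool. Ptprc itself measured 124.5 and 124.3 RPM in LLC and 55.2 and 29.3 RPM in LLC-Chem (log2 change -1.62, limma adjusted p = 0.0218). Ratios are of RPM and are compared between pools of 1 receptor, and with 2 pools against 2 an exact permutation test cannot go below p = 0.33. Ccr2 amounted to 127.3% and 131.4% of Ptprc in LLC and to 128.1% and 151.2% in LLC-Chem, so that the groups overlapped. Ccr1 was at 60.8% and 55.5% in LLC and at 84.2% and 106.7% in LLC-Chem, higher in both LLC-Chem pools. Cxcr4 went from 15.3% and 12.1% to 11.1% and 9.90%. Neither Ccr2 nor Ccr1 was lower per Ptprc in LLC-Chem, and the Cxcr4 ratios of the groups nearly met. Cx3cr1 was at 3.93% and 5.43% in LLC and 3.62% and 2.39% in LLC-Chem, and Cxcr3 at 2.29% and 2.81% in LLC and 2.08% and 2.05% in LLC-Chem. For Cx3cr1 and Cxcr3 the ratios of the groups nearly met as well, and their second LLC-Chem pools rest on 22 and 19 reads. Ccr7, Cxcr2 and Ackr3 overlapped between the groups. Ccr6 was at 14.6% and 12.1% of Ptprc in LLC and at 0.0906% and 0.171% in LLC-Chem, the widest gap of the 9 receptors by this ratio. In all, 4 of the 9 receptors were lower per Ptprc in both LLC-Chem pools, 1 was higher and 4 overlapped. Since Ptprc itself fell, 90.2% of all genes tested were higher per Ptprc in both LLC-Chem pools and 1.95% were lower, so that the order of Ccr1 is the common one. With the macrophage gene Csf1r as the denominator 3 receptors were lower, Ccr6, Cxcr3 and Cx3cr1, against 1.64% of all genes lower and 83.2% higher. Over the summed pan-leukocyte markers 5 were lower, the 4 of the Ptprc ratio and Ccr2, against 3.59% of all genes lower and 84.3% higher. The places of Ccr1, Ccr2 and Cxcr4 depend on the denominator, since Ccr1 and Cxcr4 overlapped per Csf1r and Ccr2 was lower only over the sum.

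**Figure D3:**
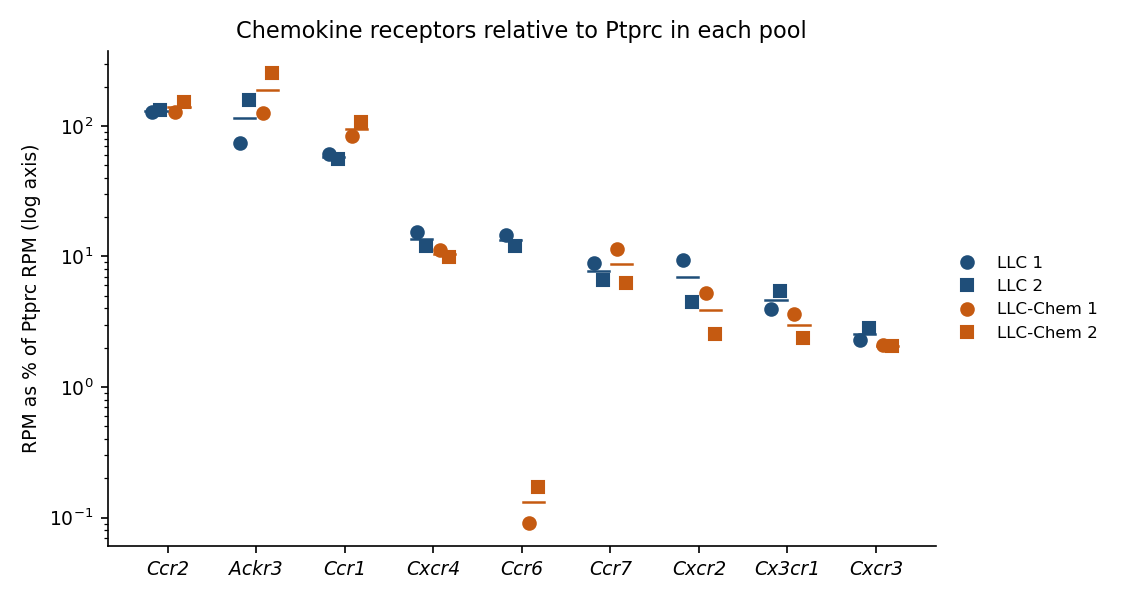
RPM of the 9 receptors as a percentage of the RPM of Ptprc in the same pool (log axis), with LLC pools in blue, LLC-Chem pools in orange, and a short line at the mean of each group. Ccr1 lies above its LLC ratio in both LLC-Chem pools, Ccr2, Ccr7, Cxcr2 and Ackr3 overlap between the groups, and Ccr6 drops from over 12% to under 0.2%.

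The ligands of the 9 receptors did not move as 1 group. Of 20 ligand genes taken as a list, 16 were tested, 7 fell, 1 rose and 8 did not pass, with a median log2 fold change of -1.36. By limma 13.5% of all genes tested were called lower and 9.54% higher. Cxcl12, the ligand of CXCR4 and ACKR3, measured 129.2 and 78.4 RPM in LLC and 32.2 and 19.2 RPM in LLC-Chem (log2 change -1.99, limma adjusted p = 0.0181). The gene of the ligand was thus lower together with that of its signalling receptor. Cx3cl1 was the ligand that rose, with 12.6 and 10.7 RPM in LLC and 37.1 and 49.0 RPM in LLC-Chem (log2 change 1.83, limma adjusted p = 0.0102), while its receptor gene Cx3cr1 fell in the test without the block. Among the ligands of CXCR2, Cxcl3, Ppbp and Cxcl2 fell, with log2 changes of -3.999, -3.44 and -2.16 (limma adjusted p = 0.0093, 0.01 and 0.0355). The Cxcl2 call was lost without limma's trend (adjusted p = 0.0589), and its log2 change moved to -1.37 when the first LLC pool was left out and to -2.96 when the second was. Cxcl1 went the other way without passing, with 56.9 and 15.0 RPM in LLC and 77.9 and 447.8 RPM in LLC-Chem (limma adjusted p = 0.0939). Ccl2, the main ligand of CCR2, measured 303.5 and 126.2 RPM in LLC and 365.6 and 828.9 RPM in LLC-Chem and did not pass (limma adjusted p = 0.0919). Both LLC-Chem pools lay above LLC for Ccl2 and below it for Ccr2. Ccl5 and Ccl3, ligands of CCR1, fell (log2 change -2.79 and -1.97, limma adjusted p = 0.0116 and 0.029), and Ccl6, Ccl7 and Ccl9 did not pass. Cxcl9, a ligand of CXCR3, fell (log2 change -1.60, limma adjusted p = 0.0241), while Cxcl10 did not pass (limma adjusted p = 0.106). Ccl19 and Ccl21a, the ligands of CCR7, were at or under 0.15 RPM in all pools.

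**Figure D4:**
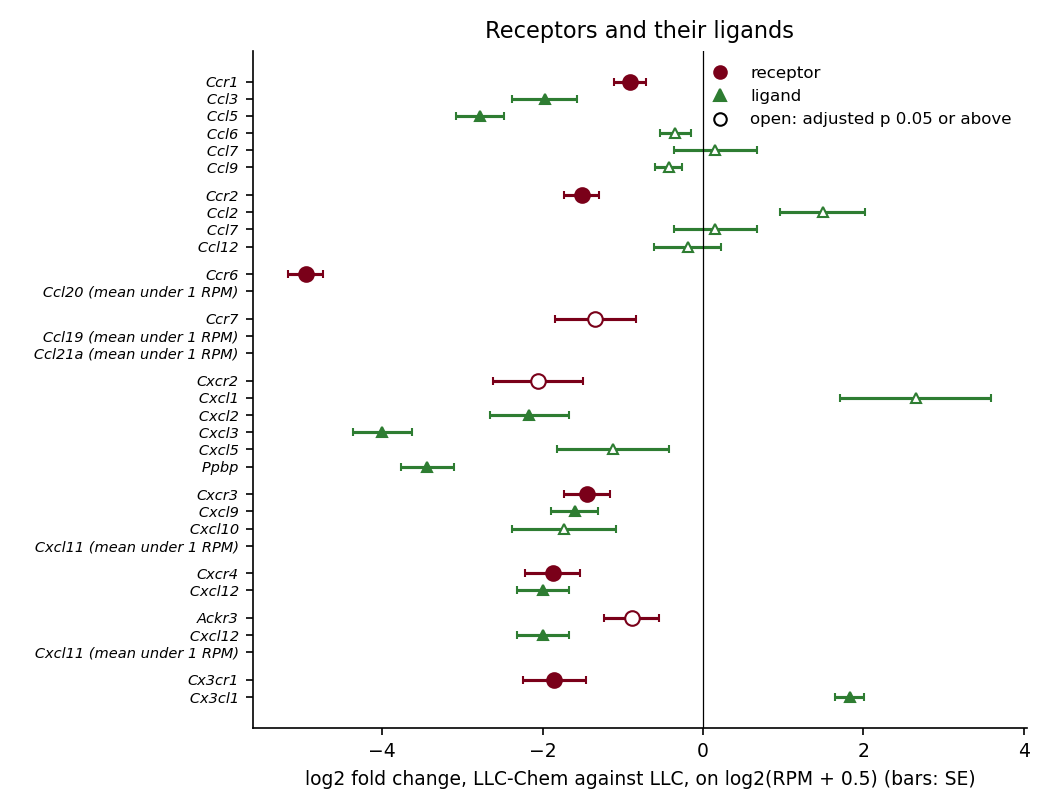
Log2 fold change of LLC-Chem against LLC on log2(RPM + 0.5), with standard errors as bars, for each of the 9 receptors (red circles) and its ligands (green triangles), where open symbols did not pass an adjusted p of 0.05 and ligands with a mean under 1 RPM have no point. Cxcl12 lies left of 0 with Cxcr4, Cx3cl1 lies right of 0 at 1.83 against -1.85 for Cx3cr1, and the ligands of CXCR2 lie on both sides.

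Genes that act downstream of chemokine receptors were taken as a list of 22, all of which were tested. Among them 9 fell and none rose, against 13.5% of all genes called lower, with a median log2 fold change of -0.60. The count was 7 with edgeR or with TMM scaling, 6 without limma's trend and 5 with the replicate block. Calls among all 13694 genes dropped too, from 1848 lower in the main test to 1615 with edgeR and 1583 with TMM scaling. They dropped to 1271 lower without the trend and to 1064 lower with the block. Pik3r5 and Adrbk1 lost their calls under all 4 of these settings, Grk6 under the last 2 and Plcb2 under the block. Rgs2, which limits G protein signals, fell (log2 change -1.93, limma adjusted p = 0.0105). Prex1 and Pik3cg, which link G proteins to Rac and to phosphoinositides in leukocytes, fell (log2 change -1.62 and -1.36, limma adjusted p = 0.0259 and 0.019). Adrbk2 and Arrb2, which encode a receptor kinase and a beta-arrestin that silence active receptors, fell (log2 change -1.52 and -0.87, limma adjusted p = 0.0132 and 0.0117). The receptor kinase genes Adrbk1 and Grk6 fell less (log2 change -0.51 and -0.50, limma adjusted p = 0.0368 and 0.03). Plcb2, a phospholipase gene, and Pik3r5, which encodes a partner of PIK3CG, also fell (log2 change -1.26 and -0.71, limma adjusted p = 0.03 and 0.0447). The G protein subunit genes Gnai2, Gnai3, Gnb1 and Gnb2 lay between -0.27 and 0.23 and did not pass.

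Markers of the cells that carry these receptors moved as well, where limma called 13.5% of all genes tested lower and 9.54% higher. The 3 pan-leukocyte markers (Ptprc, Coro1a and Laptm5) fell, although Laptm5 did not pass with edgeR (adjusted p = 0.0526) or with the block in limma (adjusted p = 0.0728), and their summed level was 575.7 and 707.6 RPM in LLC and 350.2 and 207.0 RPM in LLC-Chem. All 3 NK cell markers (Ncr1, Klrb1c and Klrk1) fell, with a median log2 fold change of -2.20 and summed levels of 14.8 and 12.2 RPM in LLC and 2.95 and 1.00 RPM in LLC-Chem. Of the 5 neutrophil markers 3 were tested, S100a8, S100a9 and Csf3r, and these fell (median -2.22), with summed levels of 171.2 and 105.8 RPM in LLC and 40.02 and 16.8 RPM in LLC-Chem. Among the inflammatory monocyte markers Ly6c2 and Plac8 fell, while Chil3 and F13a1 did not pass, and the list summed to 594.4 and 669.1 RPM in LLC and 817.3 and 501.6 RPM in LLC-Chem. Of the 6 macrophage markers only Csf1r fell (limma adjusted p = 0.049, against 0.0648 with edgeR and 0.0853 with the block in limma), with a median of -0.79 and summed levels of 2198 and 2790 RPM in LLC and 1905 and 1219 RPM in LLC-Chem. Adgre1, Cd68, C1qa and C1qb were at 51.5%, 56.8%, 64.2% and 61.5% of the LLC mean, lower in both LLC-Chem pools, while Mrc1 overlapped between the groups. With DESeq2 these 4 were called lower (adjusted p between 0.023 and 0.0474) and Csf1r was not (adjusted p = 0.0773). The part of these cell types in the receptor results was not tested.

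All 5 endothelial markers (Pecam1, Cdh5, Kdr, Tie1 and Emcn) and all 3 mural markers (Rgs5, Pdgfrb and Cspg4, the last not with edgeR at an adjusted p of 0.0507) also fell, with medians of -2.10 and -1.53, and the endothelial sum was 198.0 and 137.8 RPM in LLC and 46.0 and 24.8 RPM in LLC-Chem. Ackr3 and Cxcr4 are known from such cells too, and their part was not tested either. The shares of all genes called by limma, 13.5% lower and 9.54% higher, apply to these marker counts as well. Pdgfra rose (log2 change 0.72), Col1a1 fell (-1.51) and Dcn did not pass among the fibroblast markers, and neither call held with the block in limma (adjusted p = 0.0658 and 0.0857), nor that of Pdgfra with edgeR (adjusted p = 0.0545). Pf4 fell (log2 change -1.12) while Itga2b did not pass among the platelet markers. The tumor cell keratins Krt8 and Krt18 did not pass, and Epcam was at or under 0.20 RPM in all pools. The erythroid markers Hba-a1 and Hbb-bt and the adipocyte marker Adipoq did not pass. Keratinocyte and muscle markers were at or under 0.50 RPM, with Ckm listed at 0 in all pools.

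**Figure D5:**
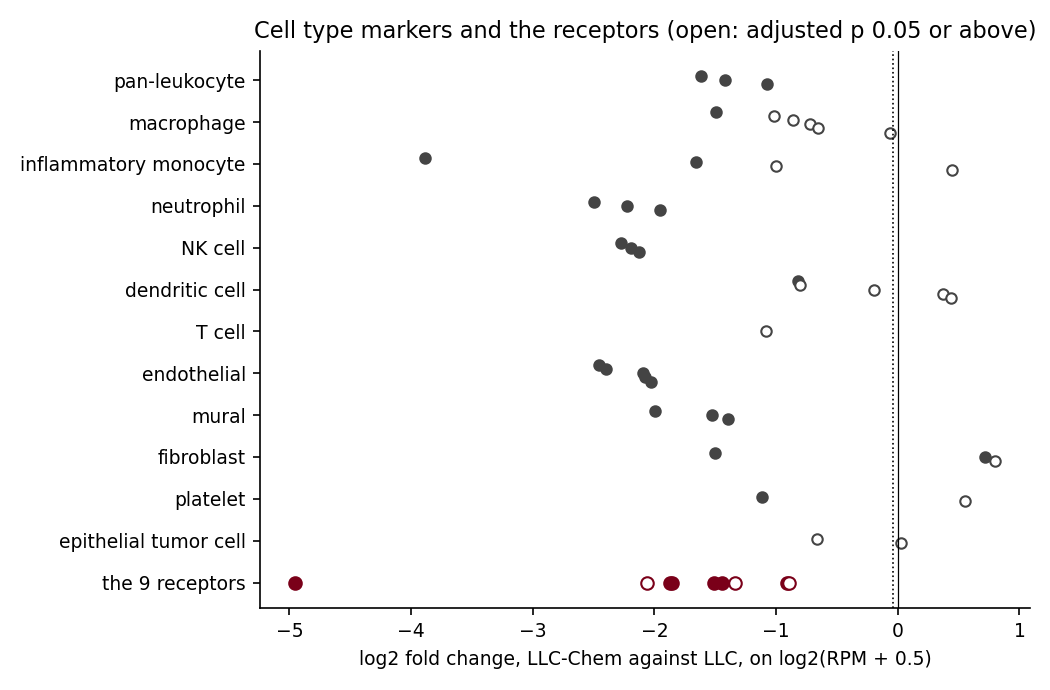
Log2 fold change of LLC-Chem against LLC on log2(RPM + 0.5) for the tested markers of each cell type (grey) and for the 9 receptors (red, bottom row), where open points did not pass an adjusted p of 0.05 and the dotted line is the median of all genes. Pan-leukocyte, neutrophil, NK cell, endothelial and mural markers lie between -2.49 and -1.07, and Ccr6 lies left of every marker shown.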

How the data were processed

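Whole LLC tumors were profiled by RNA sequencing in 2 pools of 3 tumors per group, and groups came from the labels. The authors aligned the reads to GRCm38.p4 using STAR, counted them with HTSeq and deposited RPM, with tool versions and strand setting not given in the sources used here. The deposited RPM fall on whole steps (100% of the values above 0, within 0.0025 of a step or 1 part in 1000000 where that is larger). Their totals led to the inference that counts were scaled to 20000000 and rounded up, and the total of each library was fitted in steps of 1000 reads. In 4 simulated libraries this fit missed the total by at most 0.0019%.

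RPM are not counts, so limma 3.58.1 (R 4.3.3, eBayes with trend) was the test, with Benjamini-Hochberg adjustment over 13694 genes. In a simulation with 13567 genes it found 167 of the 192 changed ones. Alternatives changed the pseudocount (0.1 or 1), the scaling, the filter, the trend or the replicate block, used edgeR 4.0.16 or DESeq2 1.42.0 on recovered reads, or left out each pool. Plots were made with matplotlib 3.10.9.

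The receptors, lists, markers and motifs were chosen with earlier results of these data known. All 9 receptors are named, with the called genes of each list and the 3 genes nearest in profile to the receptor with the largest fall. Genes named without a call, Ccr10 among them, were chosen after their values were seen. Some genes of the family and of the marker lists are not reported here.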

Additional observations from a re-analysis of the deposited data

How the results depend on the processing

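All 9 receptors had a log2 change below 0 under every alternative run. When any 1 pool was left out, limma called 0 to 0 genes in each list and direction, and the log2 changes ran from -1.197 to -0.631 for Ccr1, from -1.85 to -1.179 for Ccr2, from -5.087 to -4.816 for Ccr6, from -1.734 to -1.149 for Cxcr3, from -2.358 to -1.39 for Cxcr4 and from -2.382 to -1.323 for Cx3cr1. Without the filter on low values limma called 0 genes lower and 1 higher, and 0 receptors, further receptors, ligands or signalling genes. At an unadjusted p under 0.05, 7 of the 9 receptors were lower in that fit, against 4003 of all 26260 genes lower and 3394 higher. The 6 called receptors then had log2 changes of -0.914 (Ccr1), -1.514 (Ccr2), -4.951 (Ccr6), -1.442 (Cxcr3), -1.874 (Cxcr4) and -1.853 (Cx3cr1), with limma adjusted p between 0.105 and 0.137. The cause was not tested.

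Without limma's trend 1271 genes were called lower and 891 higher, and Ccr1 (-0.914), Cxcl2, Ccrl2 and 3 of the 9 signalling genes did not pass. At a filter of 0.5 RPM 1 further receptor was called higher and Ccrl2 was lost. Cxcr2 passed with a pseudocount of 1 (-1.806) and with DESeq2 (-2.23), which also called Ackr3 (-0.965). The causes were not tested.

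By their labels, same-numbered pools share a replicate number and nothing more. Their deviations correlated at -0.1405, a value that with 2 pools per group cannot settle whether these pools were paired. With the replicate block limma called 1064 genes lower and 549 higher, 0 further receptors and 5 signalling genes lower, Cxcr2 passed (-2.062), and Cxcr3 (-1.442) and Cx3cr1 (-1.853) did not. With edgeR and the block, an alternative chosen after seeing the data, 740 genes were lower and 510 higher, 0 further receptors and 4 signalling genes were lower, Cxcr2 passed (-2.387), and Cxcr3 (-1.889) and Cx3cr1 (-2.203) did not. The crossed pairing, also chosen after seeing the data, called 2320 genes lower and 1579 higher, with 6 receptors, 4 further receptors, 9 ligands and 13 signalling genes lower and 3 ligands higher. With 2 pools per group, a difference that was not called cannot be taken as absent.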
